A study of Mus musculus with 2 samples.

Results

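The genes described here are the nuclear-encoded genes of respiratory complexes II to V and of cytochrome c, found by gene symbol (Sdha to Sdhd, symbols starting with Uqcr, Cyc1, Cycs, symbols starting with Cox4 to Cox8, and symbols starting with Atp5). The rule matched 49 of the 31252 gene rows, and 46 of the 49 are structural subunits or cytochrome c. The other 3 carry such a symbol but are not subunits of the complex. They are Cox7a2l, which joins complexes III and IV into supercomplexes, and Atp5s and Atp5sl, whose symbols recall ATP synthase. Of the 49 genes, 4 belong to complex II, 9 to complex III, 1 is cytochrome c, 17 belong to complex IV and 15 to complex V.

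Complexes II to V sit in the inner membrane of the mitochondrion. Complex II passes electrons from succinate to ubiquinone, complex III passes them on to cytochrome c, complex IV hands them to oxygen, and complex V (ATP synthase) uses the proton gradient that complexes I, III and IV build to make ATP. All subunits of complex II are encoded in the nucleus, whereas complexes III, IV and V also hold subunits encoded by mitochondrial DNA. Several complex IV subunits and the membrane ring of complex V come in more than 1 isoform, each from its own gene, and the isoforms of complex IV differ between tissues.

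RNA from the ventral midbrain of mice 2 months old was sequenced, with 1 library labelled Ctrl and 1 labelled OE, both from an incipient congenic C57BL/6 strain. Per the study's methods, Ctrl and OE mice are littermates of a cross whose parents brought in Cre at the Slc6a3 locus, the gene of the dopamine transporter, floxed Tfam, a ROSA26 tdTomato reporter and ROSA26 CAG-S-COUP-TFII, and OE mice carry the last of these, from which Cre switches on COUP-TFII. Expression of the transgene is thus directed to dopaminergic neurons, while the RNA comes from the whole tissue block. By the parents' genotypes in the study's methods, every pup of this cross inherits Cre, the tdTomato reporter and at least 1 floxed Tfam allele. Ctrl and OE mice thus share these. The labels themselves give no genotype beyond Ctrl and OE, and they do not give the number of mice behind each library. The libraries held 16984336 (Ctrl) and 21326632 (OE) counts. Nr2f2, the mouse gene for COUP-TFII, had 637 counts in the labelled Ctrl library and 377 in the labelled OE library, which on the log2 scale is -1.07 (OE over Ctrl by the labels; 95% counting interval -1.26 to -0.88). The targeted gene therefore goes against the labels, and every direction given here is that of the labels. These counts cover all cells of the tissue block, and markers of several cell types also differed between the libraries. The part of other cells in the Nr2f2 value was not tested. Whether the labels were exchanged between the 2 libraries was not tested, and an exchange would reverse the sign of every fold change given here.

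The labels name dopaminergic neurons as the cell type, yet markers of other cells were present. Mbp, a myelin protein of oligodendrocytes, had 128974 counts in the labelled Ctrl library and 139810 in the labelled OE library, against 2499 and 9354 for Th, the rate-limiting enzyme of dopamine synthesis. Markers of several cell types also differed between the libraries, from lists chosen with earlier results of these data known. In bulk tissue, fewer cells of a type, less RNA per cell and a change in the marker genes themselves cannot be told apart. All 16 markers of dopaminergic neurons were higher by over log2 0.2 by the labels, against 17.9% of all genes tested. Their summed level was 1563 CPM (counts scaled to a common library total after TMM adjustment) in the labelled Ctrl library and 3718 in the labelled OE library. Of 14 thalamic markers 12 were lower (85.7%, against 16.6% of all genes tested). The 14 had a summed level of 1229 and 750 CPM, and Gbx2 among them was at 0 in the library labelled OE. Of 12 oligodendrocyte markers 9 were lower (75%), with summed levels of 21109 and 17642 CPM. No other marker of these lists was at 0. The part of these differences in the values of the respiratory genes was not tested.

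By the labels, most genes of complexes II to V stood somewhat higher in OE, by small amounts. Fold changes are on the log2 scale, from counts scaled by TMM with 0.5 added, for genes whose mean over both libraries reached 10 counts. This minimum kept 46 of the 49 genes and 15246 rows in all. Of the 46 genes, 41 had a fold change above 0 and 5 below, against 7782 above and 7464 below among all 15246 genes tested. The median log2 fold change was 0.18 over the 46 genes and 0.0046 over all genes tested. By the fold of log2 0.2 that the study's methods use, 17 of the 46 genes (37.0%) were higher, against 17.9% of all genes tested, and 2 of the 46 (4.35%) were lower, against 16.6%. Both lower genes, Cox4i2 and Cox6a2, are isoforms with few counts. The nearest gene above the threshold was Sdhb at 0.20 and the nearest below it was Atp5j2 at 0.19.

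The 95% counting interval is an exact Clopper-Pearson interval on the split of the 2 counts and covers counting error only. It compares 2 libraries, not the genotypes, and there is no replicate check. The interval lay above 0 for 33 of the 46 genes (71.7%), against 15.8% of all genes tested, and below 0 for 1 gene, Cox6a2, against 14.4%. For 12 genes the interval held 0. Summed over all 49 genes, counts were 125664 in the labelled Ctrl library and 173173 in the labelled OE library, or 0.740% and 0.812% of all counts, a log2 fold change of 0.15 (interval 0.14 to 0.16). Abundant genes have narrow intervals, so a set of abundant genes passes this call more often than others. Where the mean reached 1000 counts, 15 of 39 genes of complexes II to V and 7.95% of all 4303 such genes were higher by more than log2 0.2, with medians of 0.19 and 0.0074. The plot of fold changes by complex shows the spread within each complex.

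**Figure D1:**
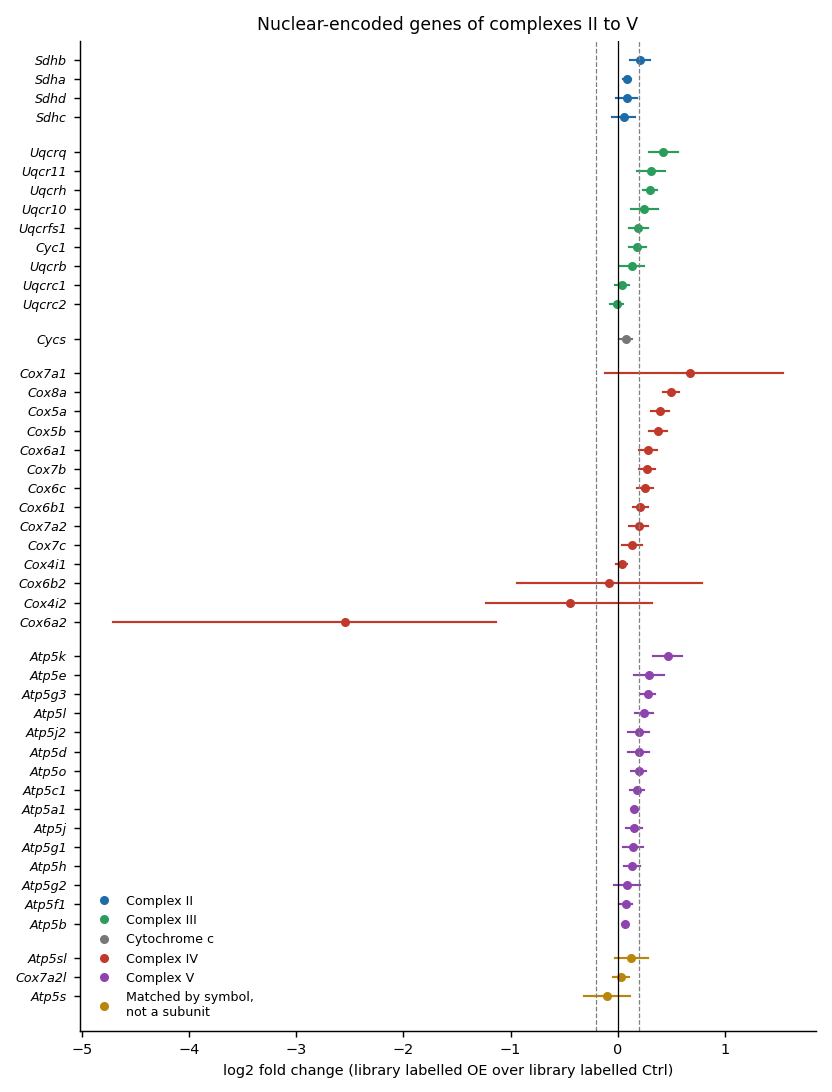
Log2 fold change (library labelled OE over library labelled Ctrl, horizontal axis) of the 46 tested genes, coloured by complex, with lines for the 95% counting interval and dashed lines at log2 0.2 to either side of 0. Complex V genes all lie above 0, complex III genes span values from about 0 to past the upper dashed line, and complex IV genes run from -2.55 (Cox6a2) to 0.67 (Cox7a1), with wide intervals for the 4 isoforms with few counts.

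Promoters are printed for genes at both ends of this range among those whose mean reached 1000 counts, so that the sequence around the start of genes with large and small differences can be read side by side. Uqcrq and Uqcrc2 also stand at the ends. Cox8a and Atp5k had the largest fold changes with a sequence, Cox5a the next, and Uqcrc1 the smallest among subunits with a sequence. The last 2 were taken after their values were seen. The sequences are from RefSeq (GRCm38.p6) and run from 250 bases before the annotated start to 50 after it, 5′ to 3′ on the gene's strand. Capitals mark matches, on either strand, to GCATGCGC (the core of the motif of NRF1), CCGGAAGT (the motif of ETS factors such as GABPA), AAGATGGC (YY1), GGGCGG (SP1) or AGGTCA (the hexamer that nuclear receptors, COUP-TFII among them, bind in pairs).
Cox8a, chr19:7217567-7217866, minus strand: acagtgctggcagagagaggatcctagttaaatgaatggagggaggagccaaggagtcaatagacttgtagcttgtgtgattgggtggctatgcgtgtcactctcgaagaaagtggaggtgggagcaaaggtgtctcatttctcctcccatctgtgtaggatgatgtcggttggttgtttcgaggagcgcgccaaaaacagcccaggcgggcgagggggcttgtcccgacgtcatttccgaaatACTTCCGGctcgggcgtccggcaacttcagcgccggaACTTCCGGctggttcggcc
Atp5k, chr5:108434350-108434649, minus strand: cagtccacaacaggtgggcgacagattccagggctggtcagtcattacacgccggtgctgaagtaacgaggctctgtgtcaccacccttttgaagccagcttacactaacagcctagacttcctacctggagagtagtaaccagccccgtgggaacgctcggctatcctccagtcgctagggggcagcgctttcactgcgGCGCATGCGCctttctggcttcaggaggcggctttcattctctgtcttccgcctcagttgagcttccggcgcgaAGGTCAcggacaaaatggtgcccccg
Cox5a, chr9:57520982-57521281, plus strand: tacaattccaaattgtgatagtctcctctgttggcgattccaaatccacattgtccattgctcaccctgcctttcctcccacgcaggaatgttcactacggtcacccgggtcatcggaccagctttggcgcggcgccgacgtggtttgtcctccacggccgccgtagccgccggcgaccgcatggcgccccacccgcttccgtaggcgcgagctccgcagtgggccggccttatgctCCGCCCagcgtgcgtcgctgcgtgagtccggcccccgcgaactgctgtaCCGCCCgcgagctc
Uqcrc1, chr9:108936398-108936697, plus strand: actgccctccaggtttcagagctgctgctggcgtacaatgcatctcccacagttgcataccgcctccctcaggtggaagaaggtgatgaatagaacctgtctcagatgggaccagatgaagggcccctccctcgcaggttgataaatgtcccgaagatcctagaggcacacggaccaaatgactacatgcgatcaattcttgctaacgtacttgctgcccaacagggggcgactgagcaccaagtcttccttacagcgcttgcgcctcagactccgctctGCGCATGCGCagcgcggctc
Cox8a held 2 matches to the ETS motif, at bases 245 to 252 and 282 to 289 of the window. Atp5k and Uqcrc1 each held a palindromic run in which 2 matches to the NRF1 core overlap, and Atp5k also held AGGTCA at bases 275 to 280. Cox5a held 2 matches to the SP1 motif and none to the others. The NRF1 core was thus in a window of a gene with a large difference and in that of a gene with almost none.

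Of the 46 tested genes, 36 matched a RefSeq promoter, with 40 windows in all, since some genes have more than 1 start and such windows can overlap. The NRF1 core was in 8 of the 40 windows, compared with 4.72% of the 14780 windows of all tested genes and 2.71% of all 32851 windows. The ETS motif was in 4 windows (7.06% of tested genes' windows and 3.89% of all) and the YY1 motif in 5 (3.88% and 2.75%). The SP1 motif was in 14 windows (60.6% and 35.7%). AGGTCA was in 8 windows (12.4% and 16.3%), and of these windows 7 were among the 15 of genes higher by more than log2 0.2 and 1 among the other 25. The 7 belong to Cox5b, Atp5g3, Atp5e, Sdhb, Atp5k, Atp5l and Cox7b, and the remaining one to Sdhd. In the same 15 and 25 windows, the NRF1 core was in 5 and 3 and the ETS motif in 3 and 1. The YY1 motif was in 0 and 5, and the SP1 motif in 4 and 10. No test was made of any of these splits, which use the fold changes themselves. Of the 14780 windows of tested genes, 4 held 2 copies of AGGTCA 1 base apart on a strand, and 0 of the 40 windows did. These matches describe letters in the window, and no binding was measured.

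Counts are given in the order labelled Ctrl, labelled OE from here on, and parentheses after them hold the log2 fold change and its 95% counting interval. In complex II, all 4 genes had a fold change above 0, against 7782 of the 15246 genes tested. The catalytic genes had intervals above 0. Sdhb, the iron-sulfur subunit, had 1538 counts in the labelled Ctrl library and 2202 in the labelled OE library, a log2 change of 0.20 (0.11 to 0.30), and was the only complex II gene past log2 0.2. Sdha, the flavoprotein that oxidises succinate, had 8600 and 11345 counts (0.09, 0.05 to 0.13). The membrane anchors hold the site where ubiquinone is reduced. Sdhd had 1459 and 1917 counts (0.08, -0.02 to 0.18), and Sdhc had 1339 and 1726 counts (0.05, -0.05 to 0.16), so both intervals held 0. The median over complex II was 0.08 and the summed counts gave 0.10 (0.06 to 0.13), the lowest of the 4 complexes.

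Complex III split by the role of its subunits. The core proteins Uqcrc1 and Uqcrc2, which face the matrix and carry no redox centre, differed least. Uqcrc1 had 3645 and 4648 counts (0.04, -0.03 to 0.10) and Uqcrc2 had 4077 and 5023 counts (-0.01, -0.07 to 0.05). The redox subunits lay in between. Cyc1, cytochrome c1, had 2082 and 2937 counts (0.18, 0.10 to 0.26), and Uqcrfs1, the Rieske iron-sulfur protein, had 1757 and 2493 counts (0.19, 0.10 to 0.28). The counts of Cyc1, like those of Cox7c, were not whole, so some of its reads were divided with other genes. Small supernumerary subunits differed most. Uqcrq had 758 counts in the labelled Ctrl library and 1265 in the labelled OE library, a log2 change of 0.43 (0.29 to 0.56). Uqcr11 had 791 and 1215 counts (0.31, 0.18 to 0.44), and Uqcrh, the hinge protein, had 2760 and 4221 counts (0.30, 0.23 to 0.37). Uqcr10 had 854 and 1259 counts (0.25, 0.12 to 0.37). Uqcrb, which lies at the ubiquinone site, had 1153 and 1572 counts (0.13, 0.02 to 0.24) and was the only one of the 5 small subunits not past log2 0.2. The summed counts of the 5 small subunits gave a log2 fold change of 0.28 (0.23 to 0.33), those of the redox subunits 0.19 (0.13 to 0.25), and those of the core proteins 0.01 (-0.03 to 0.05). The intervals of the small subunits and of the core proteins do not overlap. These values are for 2 libraries, and the transcripts of the small subunits other than Uqcrq are the shorter ones.

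Cytochrome c, the soluble carrier between complexes III and IV, was nearly level. Cycs had 3683 counts in the labelled Ctrl library and 4810 in the labelled OE library, a log2 change of 0.07 (0.01 to 0.13). Testis cytochrome c has another symbol and was not matched.

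Complex IV held both the highest and the lowest fold change, each from an isoform with few counts (Cox7a1 and Cox6a2). Among genes whose mean reached 100 counts, the lowest value was -0.10, for Atp5s, which is not a complex IV gene. The 10 ubiquitous nuclear subunits of complex IV all had a fold change above 0, against 7782 of the 15246 genes tested. Their median log2 fold change was 0.26. Of the 10, 7 were past log2 0.2 (70%, against 17.9% of all genes tested). Cox8a, a small subunit that spans the membrane, had 2080 counts in the labelled Ctrl library and 3643 in the labelled OE library, a log2 change of 0.50 (0.42 to 0.57), the highest of all 49 genes once those under a mean of 100 counts are set aside. Cox5a and Cox5b, subunits on the matrix side, followed. Cox5a had 1842 and 3006 counts (0.39, 0.31 to 0.48) and Cox5b had 1746 and 2811 counts (0.37, 0.29 to 0.46). Cox6a1 had 2013 and 3036 counts (0.28, 0.20 to 0.36), Cox7b had 2185 and 3278 (0.27, 0.19 to 0.35) and Cox6c had 2274 and 3363 (0.25, 0.17 to 0.33). These genes encode small subunits around the catalytic core, which itself is encoded by mitochondrial DNA. Cox6b1, on the side of the intermembrane space, had 2740 and 3935 counts (0.21, 0.14 to 0.28). Cox7a2 had 1689 and 2401 counts (0.19, 0.10 to 0.28), and Cox7c had 1541 and 2098 (0.13, 0.04 to 0.23). At the low end stood Cox4i1, the largest nuclear subunit, through which ATP inhibits the enzyme, with 6083 and 7743 counts (0.03, -0.01 to 0.08). Its interval does not overlap those of the 9 other ubiquitous subunits except that of Cox7c. The summed counts of the 10 subunits gave 0.23 (0.21 to 0.26).

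Isoforms of complex IV known from muscle, heart, lung, sperm or testis were nearly absent from both libraries. Among them, Cox6a2, the isoform of heart and skeletal muscle, had 21 counts in the labelled Ctrl library and 4 in the labelled OE library, a log2 change of -2.55 (-4.71 to -1.14). The gene lies on chromosome 7 (mm10, bases 128205435 to 128206387). It passed the minimum of 10 counts through the library where it was higher. Cox6a2 made up 1.03% of the counts of the Cox6a family in the library labelled Ctrl (exact 95% interval 0.640% to 1.57%) and 0.132% in the library labelled OE (0.0359% to 0.337%). This was the only isoform pair of complex IV whose shares had intervals that do not overlap between the libraries. Of 10 markers of striated muscle, 2 had a mean of at least 10 counts. Myh7 had 110 and 163 counts (0.25, -0.10 to 0.62) and Tnnt2 had 35 and 25 (-0.79, -1.60 to -0.02), while Ckm and Actc1 were at 0 in both libraries. Pvalb, a marker of parvalbumin interneurons, had 1321 and 2074 counts, and the median over 6 markers of these neurons was -0.01. Tnnt1, among the thalamic markers, had 251 and 20 counts. The part of these cells in the Cox6a2 value was not tested.

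Cox4i2, the isoform of lung and of oxygen-sensing vascular cells, had 32 counts in the labelled Ctrl library and 29 in the labelled OE library (-0.45, -1.23 to 0.32), and its interval held 0. Markers of mural cells, which wrap vessels, had a median of -0.19 and summed levels of 245 and 204 CPM. Of these markers, 5 of 10 were lower by more than log2 0.2 (50%, against 16.6% of all genes tested). Their part in the Cox4i2 value was not tested. Cox7a1, the isoform of heart and muscle, had 20 and 40 counts (0.67, -0.12 to 1.54), so the only tested isoform past the threshold on the higher side also had an interval that held 0. Cox6b2, the testis isoform, had 23 and 27 counts (-0.08, -0.94 to 0.79), while 8 of 10 testis markers were at 0 in the labelled Ctrl library and 6 in the other. The remaining isoforms were below the minimum. Cox8b had 4 counts in the labelled Ctrl library and 8 in the labelled OE library (0.63, -1.21 to 2.87), and Cox7b2 had 3 and 1, at or under the 3 counts taken as the floor. Cox8c had 0 counts in both, which allows a share of the Cox8 family of up to 0.144% in the labelled Ctrl library and 0.0822% in the labelled OE library. In each of the families Cox4i, Cox6a, Cox6b, Cox7a, Cox7b and Cox8, the ubiquitous gene made up between 98.4% and 99.97% of the counts.

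In complex V, all 15 genes had a fold change above 0, against 7782 of the 15246 genes tested. They ran from 0.06 to 0.46, with a median of 0.18. Past log2 0.2 were 4 of the 15 (26.7%, against 17.9% of all genes tested). The interval lay above 0 for 14 of the 15 (93.3%, against 15.8%). The head that makes ATP consists of the products of Atp5a1, Atp5b, Atp5c1, Atp5d and Atp5e. Atp5b, the catalytic beta subunit and the gene with the most counts of all 49, had 20313 counts in the labelled Ctrl library and 26384 in the labelled OE library, a log2 change of 0.06 (0.04 to 0.09). Atp5a1, the alpha subunit, had 15926 and 22002 counts (0.15, 0.12 to 0.18), and the 2 intervals do not overlap. The central stalk turns inside the head. Its gamma subunit Atp5c1 had 3589 and 5043 counts (0.18, 0.12 to 0.24), its delta subunit Atp5d had 1560 and 2216 (0.19, 0.10 to 0.29), and its epsilon subunit Atp5e had 698 and 1061 (0.29, 0.15 to 0.43). Within the head, the fold change was thus larger for the genes with fewer counts. The summed counts of the 5 genes gave 0.12 (0.10 to 0.14).

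The peripheral stalk of complex V, which holds the head still, contained no gene past log2 0.2. Atp5o, its top part that confers sensitivity to oligomycin, had 2781 and 3950 counts (0.19, 0.12 to 0.26). Atp5j had 2286 and 3152 counts (0.15, 0.07 to 0.23), Atp5h had 2741 and 3734 (0.13, 0.06 to 0.20), and Atp5f1, the long b subunit, had 3728 and 4869 (0.07, 0.01 to 0.13). The small membrane subunits e, f and g sit where dimers of the enzyme meet. The genes of e and g had larger fold changes than the stalk genes, and that of f was level with Atp5o. Atp5k (subunit e) had 739 counts in the labelled Ctrl library and 1266 in the labelled OE library, a log2 change of 0.46 (0.33 to 0.60), the largest in complex V. Atp5l (subunit g) had 1914 and 2818 counts (0.24, 0.16 to 0.33) and Atp5j2 (subunit f) had 1428 and 2030 (0.19, 0.10 to 0.29). The summed counts of the 3 membrane genes gave 0.27 (0.21 to 0.33) and those of the 4 stalk genes 0.13 (0.10 to 0.17), and these intervals do not overlap. By the median length of transcripts paired with a RefSeq mRNA, Atp5k and Atp5l were shorter (371 and 544 bases) than the 4 stalk genes.

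The ring of c subunits, through which protons pass, is encoded by Atp5g1, Atp5g2 and Atp5g3, whose mature proteins are the same and whose mRNAs differ. Atp5g3 had 2997 counts in the labelled Ctrl library and 4526 in the labelled OE library (0.28, 0.21 to 0.35). Atp5g1 had 1580 and 2170 counts (0.14, 0.05 to 0.24) and Atp5g2 had 970 and 1279 (0.09, -0.04 to 0.21), the only complex V gene whose interval held 0. Atp5g3 made up 54.0% of the family's counts in the library labelled Ctrl (52.7% to 55.3%) and 56.8% in the library labelled OE (55.7% to 57.8%). Such a share does not depend on the scaling between libraries. Counted per kilobase of transcript, its share was 68.5% and 71.0%.

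The 3 genes matched by symbol alone had a median log2 fold change of 0.03, and none was past log2 0.2. Cox7a2l had 2656 counts in the labelled Ctrl library and 3373 in the labelled OE library (0.03, -0.04 to 0.11), Atp5sl had 632 and 857 (0.13, -0.02 to 0.28), and Atp5s had 334 and 387 (-0.10, -0.32 to 0.11). All 3 intervals held 0.

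Levels of the genes within a library spanned a wide range when counted per length. As CPM per kilobase of transcript (median length of annotated transcripts paired with a RefSeq mRNA), Atp5b stood at 621 in the labelled Ctrl library and 649 in the labelled OE library, above all other members in both. Cox4i1 followed at 472 and 483, and Atp5a1 at 377 and 420. The highest of complex III was Uqcrh at 296 and 364, and the highest of complex II was Sdha at 174 and 184. Sdhc was at 24.7 and 25.7, the lowest of complex II. Complex IV isoforms were the lowest of all, from 1.81 for Cox6a2 to 2.98 for Cox7a1 in the library labelled Ctrl among the 4 that were tested. Order among close neighbours, such as Cox6c at 265 and Cox6b1 at 260 in the library labelled Ctrl, was not tested and depends on the length taken for each gene. For Uqcrq that length was 1521 bases by the paired transcript and 454.5 by the median of all annotated transcripts, so its level is uncertain.

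**Figure D2:**
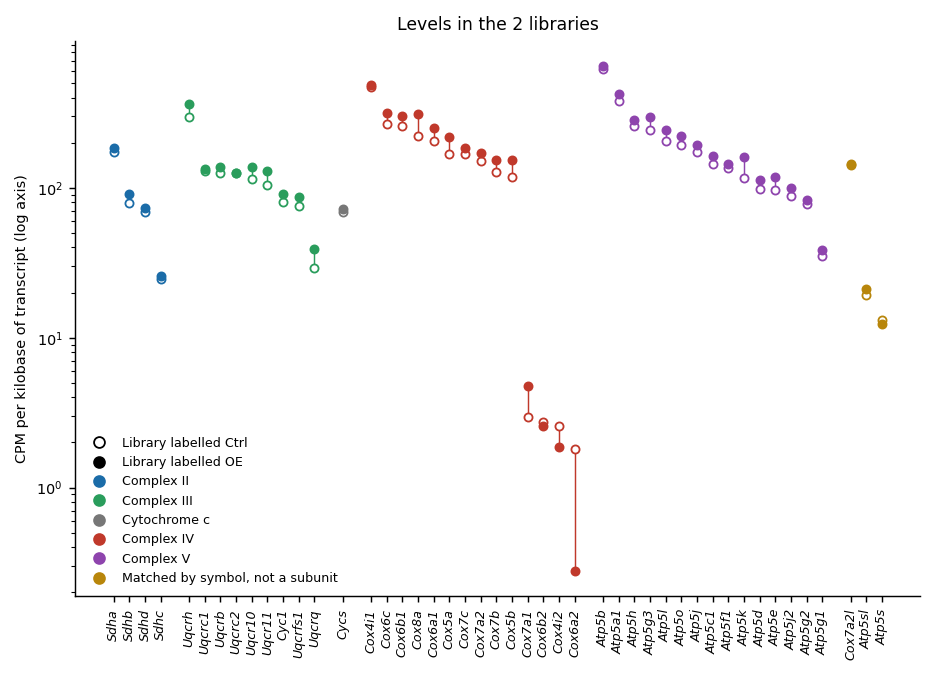
Level of each of the 46 tested genes as CPM per kilobase of transcript (log axis), open points for the library labelled Ctrl and filled points for the library labelled OE, coloured by complex. Atp5b is highest at 621 and 649, and the 4 complex IV isoforms with few counts lie below 5.

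The genes with larger fold changes had shorter transcripts, and short genes in general stood higher in the labelled OE library. The median transcript length was 807 bases over the tested genes of complexes II to V and 3005 bases over all tested genes. Across the 42 genes of complexes II to V whose mean reached 100 counts, the fold change and the log2 length had a Spearman's rho of -0.60 (Pearson's r -0.56). Across all 11234 such genes with a length, rho was -0.22 (r -0.17). These are correlations across genes of the same 2 libraries, and genes are not independent replicates. Among other genes under 1000 bases, 37.1% of 711 were higher by more than log2 0.2, and their median was 0.13. Of the 27 tested genes of complexes II to V under 1000 bases, 14 were higher, with a median of 0.21. At 1000 bases or more, 3 of 19 were higher, with a median of 0.09, against 15.4% and -0.0018 for 13155 other genes.

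The median fold change of all genes of like length was taken off each gene, in 10 length classes. This lowered the number of genes past log2 0.2 from 17 to 8 of 46. Of all 15246 genes tested, 13.8% were past it. That share counts genes without a length as not past it, and 13912 of the tested genes had one. It is therefore too low for the genes with a length. The median over the 46 genes became 0.10, and 27 of their intervals lay above 0. The share of all genes with an adjusted interval above 0 was not computed. This adjustment used the paired transcript lengths and was chosen after seeing the data. With lengths from the median of all annotated transcripts, 13 genes were past the threshold, against 15.6% of all genes tested. With the longest transcript, 11 were past it, against 14.8%. Both shares likewise count tested genes without a length as not past it, and 14480 of the tested genes had one. With the paired lengths, the median of complex II was 0.07, that of complex III 0.14, that of complex IV 0.13 (0.23 without the adjustment) and that of complex V 0.096 (0.18 without it). The lowest length class ran up to 1288 bases and held 31 of the tested genes, of which 24 were above the median of all genes in the class. What made short genes higher in 1 library was not tested.

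**Figure D3:**
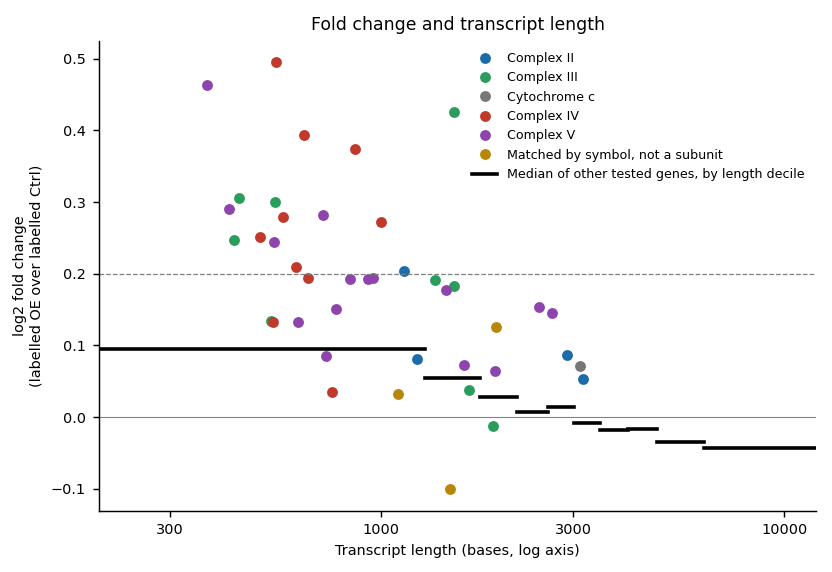
Log2 fold change, OE over Ctrl by the labels, against transcript length in bases (log axis) for the 42 genes of complexes II to V whose mean reached 100 counts, coloured by complex, with black bars for the median of other tested genes in each of 10 length classes and a dashed line at log2 0.2. The black bars go down from 0.09 in the shortest class to -0.04 in the longest, and most coloured points below 1000 bases lie above their bar.

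Other genes of the respiratory chain gave the background for these values. Nuclear-encoded complex I, which takes electrons from NADH, had 36 tested genes, with a median of 0.17. Of the 36, 16 were higher by more than log2 0.2 (44.4%, against 17.9% of all genes tested) and 0 lower. Complexes IV and V have 6 subunits and regulators under other symbols, of which 4 were higher (66.7%), with a median of 0.27. Among them, Usmg5, a small membrane subunit of complex V, had 987 counts in the labelled Ctrl library and 1647 in the labelled OE library (0.43, 0.31 to 0.54), close to Atp5k. Atpif1, which inhibits the enzyme when it would hydrolyse ATP, had 1351 and 2006 (0.26, 0.16 to 0.36). Ndufa4, a subunit of complex IV named for complex I, had 2406 and 3403 (0.19, 0.11 to 0.26). Assembly factors are needed to build the complexes but are not part of them. Of 30 assembly factors of complexes II to V, 8 were higher (26.7%) and 1 was lower (3.33%), with a median of 0.07. Of all genes tested, 17.9% were higher and 16.6% lower. The interval lay above 0 for 7 of the 30 (23.3%), against 15.8% of all genes tested. The lower one, Lyrm7, which helps insert the Rieske protein into complex III, had 211 and 220 counts (-0.25, -0.53 to 0.03).

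The 3 rows found for subunits encoded by mitochondrial DNA differed by less than log2 0.2. Of 18 symbols listed for such subunits, 3 matched a row, so other such subunits are not covered here. The rows Cytb (complex III), Cox2 (complex IV) and Atpase6 (complex V) are taken here, by symbol and level, as mitochondrially encoded. Cytb had 254272 counts in the labelled Ctrl library and 334993 in the labelled OE library, a log2 change of 0.08. Cox2 had 174079 and 233228 counts (0.11), and Atpase6 had 237467 and 302335 (0.04). None was past log2 0.2, and their summed counts gave 0.07 (0.07 to 0.08), below the 0.15 of the nuclear-encoded genes. The 3 rows made up 3.92% and 4.08% of all counts, and all 49 nuclear-encoded genes 0.740% and 0.812%.

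Markers of neurons and glia gave mixed values. Of 10 pan-neuronal markers 5 were higher by more than log2 0.2 (50%, against 17.9% of all genes tested) and 1 was lower (10%, against 16.6%). The 10 had a median of 0.21 and summed levels of 6944 CPM in the labelled Ctrl library and 7846 in the labelled OE library. Among these, Uchl1 had 6712 and 10969 counts (0.40), while Map2 had 18311 and 22436 (-0.02) and Rbfox3 had 1283 and 1382 (-0.21). Markers of astrocytes had a median of -0.11 and those of microglia of -0.13. Lower by more than log2 0.2 were 2 and 4 of 10 (20% and 40%, against 16.6% of all genes tested). Respiratory genes are used in every one of these cell types, and the part of the cell makeup in their values was not tested.

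**Figure D4:**
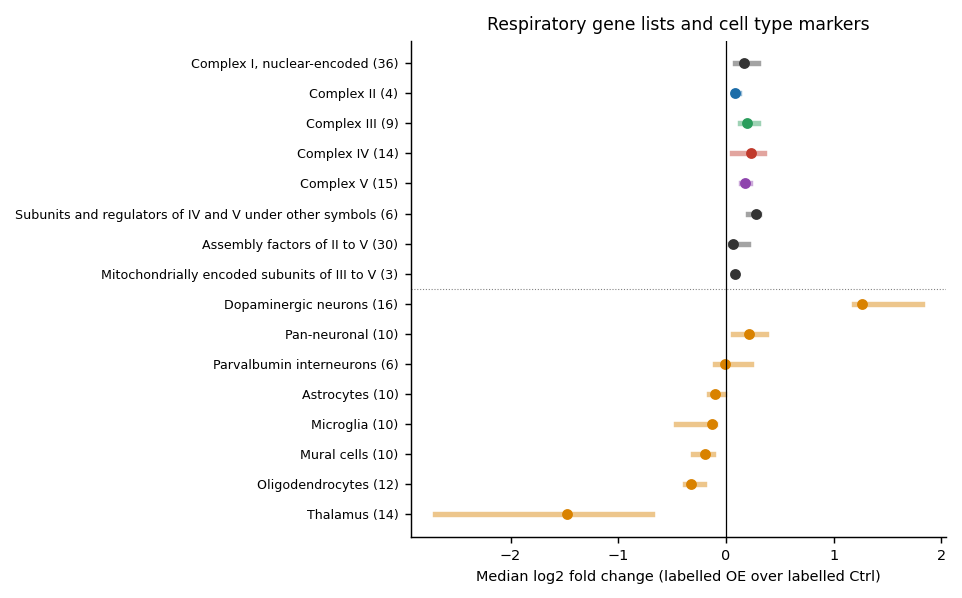
Median log2 fold change (OE over Ctrl by the labels, points) and the range from the 25th to the 75th percentile of genes (bars) for respiratory gene lists above the dotted line and cell type marker lists below it, with the number of tested genes in parentheses. The complexes lie between 0.08 and 0.23, dopaminergic markers at 1.26 and thalamic markers at -1.48.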

How the data were processed

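Strand-marked libraries of polyadenylated RNA (2 reads of 50 bases) were made and sequenced by a company, which also ran the read processing. The authors deposited 1 table of estimated counts per gene symbol, not normalized, 1 column per library. These expected counts need not be whole, since reads shared by genes are divided among them. The submitters' processing notes name mm10, and the aligner is not given in the sources used here. Columns of per-sample values left out numbered 0.

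From these values, fold changes were computed as labelled OE over labelled Ctrl after TMM scaling (edgeR 4.0.16, R 4.3.3) with a pseudocount of 0.5 and a minimum mean of 10 counts. With 1 library per group no test of the genotypes was made. Counts were rounded for the 95% Clopper-Pearson intervals (scipy 1.17.1), and steps were tested on simulated data. Lengths came from GENCODE M21. Promoters were searched on both strands. Tissue, age and strain came from the labels. Alternatives were other scalings (DESeq2 1.42.0 among them), filters, thresholds, a pseudocount of 5 and length classes. Every row matching the symbol rule was accounted for, and both counts are given where a result turns on a gene. The genes and lists were chosen with earlier results of these data known.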

Additional observations from a re-analysis of the deposited data

How the results depend on the processing

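The median log2 fold change of 0.18 stayed above 0 under every alternative run. It was 0.16 with total counts and 0.17 with total counts without the rows Cytb, Cox2 and Atpase6. It was 0.19 for structural subunits alone. After length classes by the median, longest and paired transcript were taken off, it was 0.15, 0.099 and 0.097. Genes higher by more than log2 0.2 numbered 17, and 11 and 8 with length classes by the longest and the paired transcript. At a threshold of log2 0.1 they numbered 31 of 46, against 30.6% of all genes, and at log2 0.5 they numbered 1 of 46, against 5.59%, so the share was above that of all genes at the lower threshold and below it at the higher. Lower genes numbered 1 at log2 0.5. With a mean of at least 100 counts, 0 genes were lower and 0 had an interval below 0. Intervals below 0 numbered 3 and 2 of 46 with length classes by the longest and the paired transcript. The share of all genes with such an adjusted interval was not computed. The fewer low genes follow from the filter, and the causes of the other shifts were not tested.

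The fold changes of the 46 genes and of Nr2f2 kept to their counting intervals under all 4 other scalings and a pseudocount of 5. Complex medians kept their sign in 28 of 28 recalculations. Of these, 6 moved by more than the margin to either side of the counting interval on the complex's summed counts. That margin is not an error of the median. No paired analysis was possible because there is only 1 library per genotype, and no replicate was left out for the same reason. Depth limits the isoforms with fewer than 50 counts.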
